A study of Acorus calamus with 8 samples.

Results

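Rhizome tissue of cut explants of sweet flag (Acorus calamus) was compared with rhizome tissue of uncut explants at 4 days. These are 2 of 8 libraries: the series sampled leaf and rhizome, cut and uncut, at 4 days and after a month, and made 1 library per combination. "Cut" means that the leaves were cut down in height, so the rhizome itself was not the cut organ. All explants, cut and uncut, were kept on Murashige and Skoog (MS) culture medium, a standard salt and vitamin mix, with the synthetic auxins NAA (0.5 mg/l) and 2,4-D (2 mg/l). The sources used here do not say how many explants were pooled for a library, and the labels count time from the cutting for the uncut explants as well. The series' title names its aim as finding candidate genes for rhizome induction.

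A rhizome is a horizontal underground stem that grows from its tip, branches from buds at its nodes and stores starch. Growth of such a stem draws on sugar that arrives from the leaves, mostly as sucrose, and on cell walls that are loosened and rebuilt while cells divide and enlarge. Auxin made in the shoot tip restrains buds, and cytokinin promotes their growth.

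The 2 libraries differed widely in usable depth. Uncut rhizome held 6876374 counts, of which ribosomal RNA took 97.9%, and cut rhizome held 10193608, of which ribosomal RNA took 89.4%. This left 146449 non-ribosomal counts in uncut and 1077693 in cut rhizome, 7.36 times as many, and 208 against 2795 features with at least 50 counts. The non-ribosomal part was 2.13% in uncut and 10.6% in cut rhizome, and at least 4.99% in each of the other 6 libraries. All ratios below compare shares of non-ribosomal counts. One undescribed feature of 310 bases, Unigene19161, held 35.2% of the non-ribosomal counts of uncut rhizome and 25.2% of those of cut rhizome. Assembled features carry the name of their best match in other species, and no sequence of them was used here.

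The tissue labels were set against marker groups. Photosystem and light-harvesting proteins summed to 0.139% of uncut and 0.186% of cut rhizome, against 1.90% and 1.11% in uncut and cut leaf at 4 days. Rubisco, its activase and other enzymes of carbon fixation and photorespiration summed to 0.117% of uncut and 0.0629% of cut rhizome, against 1.43% and 0.576% in leaf. Both rhizome libraries were thus far below both leaf libraries for leaf markers. The markers were not at 0 in either, with 59 counts of the Rubisco small subunit in uncut rhizome and 310 in cut rhizome. Of nuclear features, 62 had their best match in a genus of protists, diatoms, brown algae or water moulds, and they summed to 0.138% of uncut and 0.225% of cut rhizome.

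With 1 library a side no test between the conditions was possible, and every difference below is between 2 libraries. A feature was compared when it held at least 50 counts in either library, and it was called higher or lower when its share differed at least 4-fold, with fewer than 3 counts in the lower library treated as 3, and when the library with the larger share itself held at least 50 counts. Square brackets give exact 95% intervals of the ratio, which cover counting error only. Where a library held 0 counts, "at least" gives the ratio against a floor of 3 counts in that library. Because a bulk share is relative, fewer cells of a type and less RNA per cell cannot be told apart.

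Of 2815 features compared, 403 were higher in cut rhizome (14.3%) and 57 were lower (2.02%). The median ratio over all compared features was 1.90-fold in favour of cut rhizome (log2 0.93), and 73.4% of them lay above 1. The 2 directions were not equally open to a call. A call of higher needed 88.3 counts in cut rhizome, which 1404 features reached, and a call of lower needed 50 in uncut rhizome, which 208 reached; of those able to be called, 28.7% were higher and 27.4% were lower. With a scaling that centres the shared features (median of ratios) the split became 122 higher and 87 lower. With the same minimum share in both libraries it became 51 higher and 57 lower among 305 features. The median-of-ratios scaling thus left more higher than lower calls, and the filter turned that order. Most features were compared through the deeper cut library alone, so for many groups below few or no members could be called lower. For many of the larger groups the number able to be called is given. Of all features able to be called higher 28.7% were called, and of those able to be called lower 27.4%. These are the shares to read a group against where its number able to be called is given. Where calls are given per feature compared, the shares of all compared features, 14.3% higher and 2.02% lower, are the like measure. That measure also depends on how many members had the counts for a call.

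**Figure D1:**
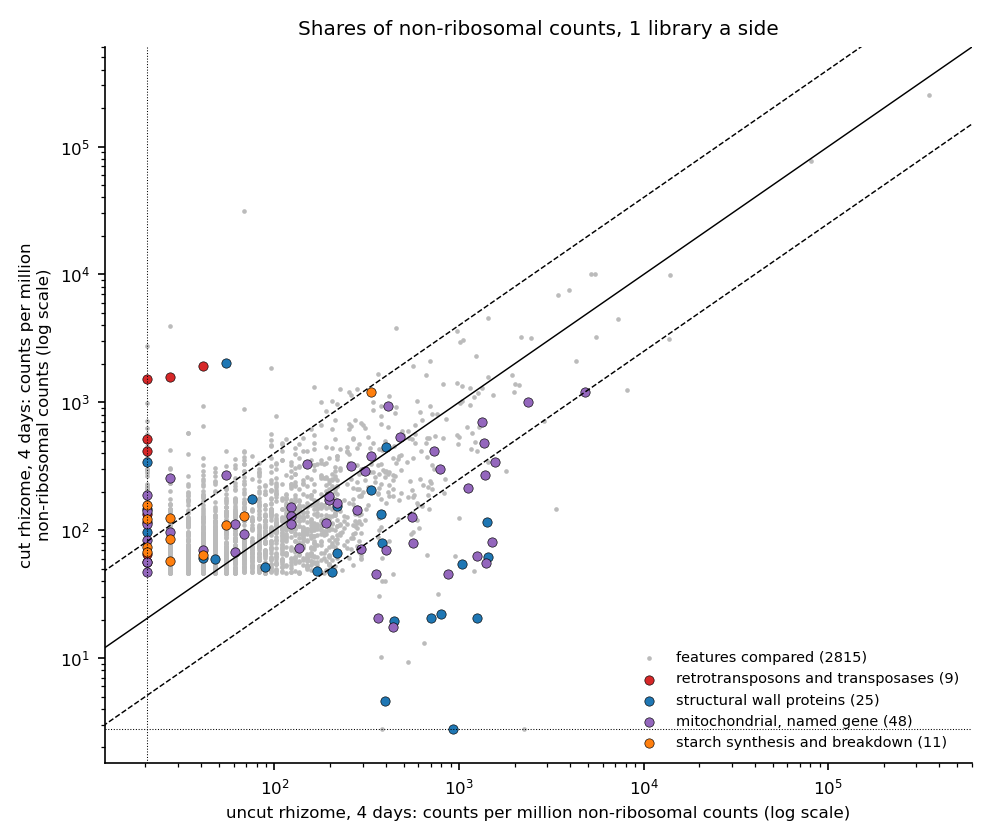
Each point is 1 of 2815 compared features, placed by its counts per 1000000 non-ribosomal counts in uncut (x) and cut (y) rhizome at 4 days, on log axes; the solid line marks equal shares, dashed lines mark 4-fold, and dotted lines mark 3 counts, at which lower values are drawn. Retrotransposon features lie at the upper left, structural wall proteins and mitochondrial genes reach far to the lower right, and starch features lie above the line.

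Longer features had larger ratios. Among 10 length classes of about equal size, the median log2 ratio was -0.66 in the shortest class (253 to 1019 bases), 0.94 in the fifth (1629 to 1808 bases) and 1.93 in the longest (3286 bases and more). Features called higher had a median length of 2660 bases and features called lower one of 946 bases, against 1808 over all compared. The leaf pair at 4 days had the same slope, from -1.54 to 1.46, whereas in the rhizome pair at a month all class medians lay between -0.74 and -0.32. Across features, the Spearman correlation of ratio and length was 0.47 over 2815 features in rhizome at 4 days, 0.56 over 4048 in leaf at 4 days and 0.05 over 1681 in rhizome at a month. Taking each feature's log2 ratio relative to the median of its length class turned the split over, to 81 higher (2.88%) and 144 lower (5.12%). The part of RNA quality or library preparation in this slope was not tested. Where a ratio relative to length is given below, it is this length-matched one.

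**Figure D2:**
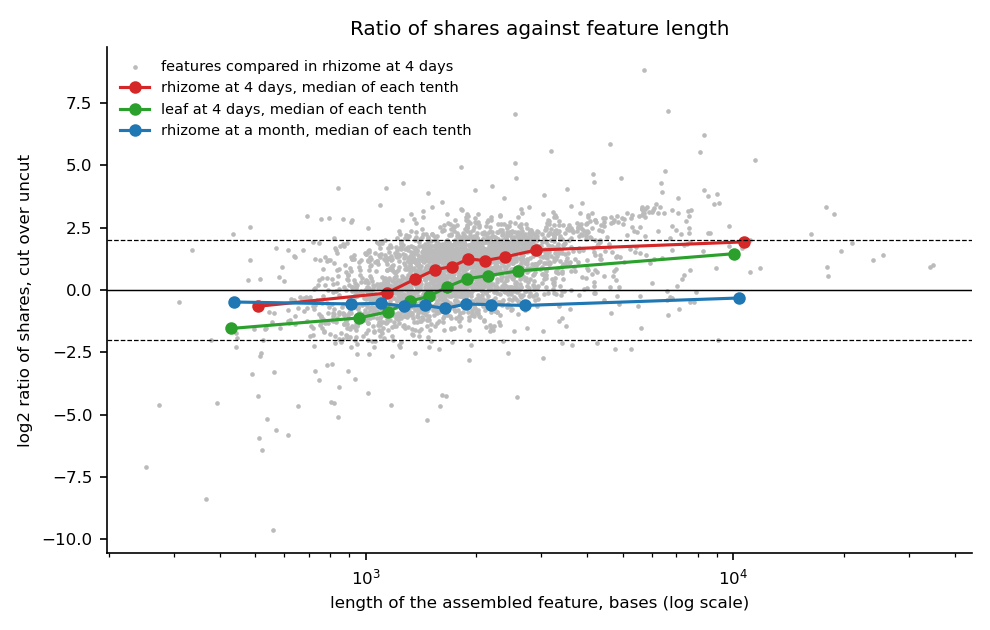
Grey points show the log2 ratio of shares, cut over uncut rhizome at 4 days, against feature length on a log axis, and coloured points show the median of each of 10 length classes in 3 pairs of libraries. The medians climb from -0.66 to 1.93 in rhizome at 4 days and from -1.54 to 1.46 in leaf at 4 days, and stay between -0.74 and -0.32 in rhizome at a month.

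Starch and sucrose features took larger shares in cut rhizome. The 56 features of starch synthesis and breakdown summed to 0.264% of cut and 0.0935% of uncut rhizome, 2.82-fold higher [2.37, 3.37]. Of the 11 compared, 7 had the counts for a higher call and 3 were called, and none had the counts for a lower call. Granule-bound starch synthase 1 (Unigene8022), which makes amylose inside the starch granule, held 1287 counts in cut and 49 in uncut rhizome, 3.57-fold higher [2.68, 4.85] and under the 4-fold rule. Small subunits of glucose-1-phosphate adenylyltransferase, which supplies the ADP-glucose for starch, held 171 against 3 counts (CL297.Contig4, 7.75-fold [2.61, 37.9]) and 135 against 4 (CL297.Contig3, 4.59-fold [1.75, 17.1]). These are contigs of a single cluster that can share reads. Alpha-glucan phosphorylase (Unigene1399), which releases glucose phosphate from starch, held 132 against 2 counts, 8.97-fold [2.43, 74.8]. The 11 ranged from 1.56-fold to 7.75-fold with under 3 counts treated as 3, but all were compared through cut rhizome, where they had the counts. Their median log2 ratio of 1.73 stood beside 0.93 for all compared features, and relative to length it was 0.04.

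Sucrose metabolism and sugar transport features, 60 in all, summed to 0.394% of cut and 0.186% of uncut rhizome, 2.11-fold higher [1.87, 2.40], with none of 8 past the 4-fold rule. One feature carried most of this: sucrose synthase CL1148.Contig2, which splits sucrose for use in sink tissue, held 3191 counts in cut and 149 in uncut rhizome, 2.91-fold [2.47, 3.45]. Without it the ratio was 1.15. The same feature held 3116 counts in cut and 512 in uncut leaf at 4 days. In rhizome at a month it was on the other side, with 344 counts in cut and 541 in uncut. For the 8 compared members of the group the median log2 ratio was 0.89, and -0.58 relative to length, where 2 of 8 lay above their length class. With Unigene19161 left out of the totals, the log2 ratio of the group's sum fell from 1.08 to 0.87, under 2-fold.

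Wall-loosening features, 68 in all, summed to 0.408% of cut and 0.249% of uncut rhizome, 1.64-fold higher [1.47, 1.83]. Of 14 compared, 3 of the 8 able to be called higher were, none of the 2 able to be called lower was, and the median member ratio was 1.08, below the 1.90 of all features. Relative to length, however, the median log2 ratio of the members was 0.39, and 9 of the 14 lay above their length class. Mannan endo-1,4-beta-mannosidase 7 (Unigene6884), which cuts wall mannans, led them with 1420 against 24 counts, 8.04-fold [5.38, 12.6] and 3.20-fold relative to length. Without it the ratio of the group was 1.19. Endoglucanase 9 (CL1237.Contig2) held 209 against 5 counts, 5.68-fold [2.40, 17.7]. Expansins, which loosen the bonds between wall polymers, did not move together. Expansin-A1 (CL586.Contig1) held 396 against 20 counts, 2.69-fold higher [1.72, 4.45]. Expansin-A10 (Unigene7395) held 233 against 99, 3.13-fold lower [2.45, 3.97], and none of these expansins passed the 4-fold rule.

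Pectin enzymes were split as well, with a summed share 1.23-fold lower in cut rhizome [1.10, 1.37] and 1 of 15 higher and 1 lower. Polygalacturonase At1g48100 (CL1169.Contig3), which cuts pectin chains by hydrolysis, held 184 counts in cut and 0 in uncut rhizome, at least 8.33-fold higher. Pectate lyase 5 (Unigene8561), which cuts them by elimination, held 368 against 211, 4.22-fold lower [3.55, 5.01]. It was also the most abundant member, and without it the group was 1.5-fold higher.

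Features for cellulose, callose and xylan synthesis summed to 0.221% of cut and 0.109% of uncut rhizome, 2.04-fold higher [1.73, 2.41], with 1 of 8 able to be called higher. A cellulose synthase catalytic subunit (CL1880.Contig2) held 382 against 16 counts, 3.24-fold [1.97, 5.73]. Callose synthase 3 (Unigene6900), which makes the wall polymer of dividing cell plates and plasmodesmata, held 355 against 15, 3.22-fold [1.92, 5.81]. These are long features, and relative to length the median log2 ratio of the group changed from 1.69 to -0.12. At a month the group was 2.22-fold lower in cut rhizome.

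Structural wall proteins, the extensins and the glycine-rich and proline-rich proteins that are built into the wall, showed the reverse. The 160 features summed to 0.545% of cut and 1.40% of uncut rhizome, 2.56-fold lower [2.44, 2.70]. Of 25 compared, 10 of the 12 able to be called lower were, and 4 of the 10 able to be called higher were. Leucine-rich repeat extensin-like protein 6 (Unigene13943) held 2 counts in cut and 136 in uncut rhizome, 500.4-fold lower [136, 4174]. Its name comes from SwissProt, and its best Nr match is a hypothetical protein of the alga Volvox. A glycine-rich cell wall protein (Unigene7236) held 22 against 183, 61.2-fold lower [39.2, 100.1], and a second one (Unigene5971) held 24 against 117, 35.9-fold lower [23.0, 58.2]. Of the lower features, those with the most counts in uncut rhizome were leucine-rich repeat extensin-like protein 3 (Unigene1769), with 67 against 210 and 23.1-fold lower [17.4, 30.8], and an extensin-domain feature (Unigene9808), with 124 against 207 and 12.3-fold lower [9.79, 15.5]. For each of these 5 features uncut rhizome held more counts than cut rhizome, although it was the shallower library. The 10 features called lower were 367 to 839 bases long, and relative to length Unigene7236 was 38.8-fold lower. Unigene13943 was 333.6-fold lower with its 2 counts treated as 3, and 212-fold lower when that value was taken relative to length.

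The 4 wall features that were higher differ in kind. A feature of 11432 bases named basic proline-rich protein (CL143.Contig4) held 2166 against 8 counts, 36.8-fold higher [18.6, 85.3]. A contig of the same cluster, named leucine-rich repeat extensin-like protein 4 (CL143.Contig3), held 365 against 0. The other two were leucine-rich repeat extensin-like protein 5 (Unigene147, 104 against 3) and 14 kDa proline-rich protein DC2.15 (Unigene6891, 159 against 2). Without CL143.Contig4, the most abundant member, the group was 4.05-fold lower. Proline-rich features whose names come from algal wall proteins, 94 in all, were 3.93-fold lower in cut rhizome [3.59, 4.31]. Of 10 compared, all 4 able to be called lower were, and none of the 2 able to be called higher was. 

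Auxin features summed to 0.428% of cut and 0.337% of uncut rhizome, 1.27-fold higher [1.16, 1.40]. Of 24 compared, 5 of the 13 able to be called higher were, and none of the 3 able to be called lower was. The 5 were contigs of auxin response factors 6 and 8, which activate auxin-responsive genes, and an Aux/IAA contig, a class of proteins that block the response factors. They held 97 to 133 counts in cut and 0 to 3 in uncut rhizome; they are picked out here after their values were seen. The most abundant member, IAA9 (CL205.Contig2), held 1074 against 50 counts, 2.92-fold [2.20, 3.96]. Without it the group was 1.09-fold higher. IAA30 (CL718.Contig1) held 175 against 87 and was 3.66-fold lower [2.80, 4.76]. The median log2 ratio of the compared auxin features was 1.57, and 0.36 relative to length.

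Cytokinin features together were near equal, at 0.117% of cut and 0.131% of uncut rhizome, a ratio of 0.895 [0.768, 1.05]. A cytokinin receptor, histidine kinase 4 (CL826.Contig1), held 109 counts in cut and 1 in uncut rhizome, 14.8-fold higher [2.60, 590.3], and was the single call. Cytokinin dehydrogenase 5 (Unigene6200), which degrades the hormone, held 396 against 64, a ratio of 0.841 [0.644, 1.11]. The response regulator ARR9 (CL2354.Contig2), of a class that cytokinin induces and that dampens the response, held 73 against 42 and was 4.23-fold lower [2.83, 6.27], but with under 50 counts in uncut rhizome it was not called.

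Among other hormone groups, gibberellin and brassinosteroid features were 1.27-fold lower [1.06, 1.51], and 1 of 7 was called. That was GAST1 (Unigene785), a small cysteine-rich protein of a gibberellin-regulated family, with 10 counts in cut and 77 in uncut rhizome, 56.7-fold lower [29.2, 123]. Without it the group was 1.65-fold higher. Jasmonate features were 1.54-fold higher [1.23, 1.95]. Of 8 compared, 2 of the 4 able to be called higher were. These were the receptor COI1 (Unigene2652, 95 against 0 counts) and the conjugating enzyme JAR1 (CL1830.Contig2, 91 against 2). Ethylene features had a ratio of 0.842 [0.754, 0.942] with none of 9 called. Abscisic acid features, with 186 against 62 counts, were 2.45-fold lower [1.81, 3.29], and dehydrins and other late embryogenesis abundant proteins, with 101 against 45, were 3.28-fold lower [2.25, 4.70]; no feature of either group had enough counts to be compared.

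Features of the cytoskeleton summed to a larger share of cut rhizome. Tubulins, kinesins, actin and their partners, 229 features, summed to 1.06% of cut and 0.595% of uncut rhizome, 1.78-fold higher [1.66, 1.91]. Of 38 compared, 10 of the 28 able to be called higher were, and none of the 4 able to be called lower was. The most abundant, a tubulin alpha chain (CL2337.Contig1), held 1754 against 97 counts, 2.46-fold [2.00, 3.05]. The 10 included 2 microtubule-associated proteins of 65 kDa, which bundle microtubules in the dividing cell, 2 kinesins, 2 myosins and 2 contigs of beta-6 tubulin. Their median log2 ratio was 1.55, and 0.46 relative to length, where 28 of 38 lay above their length class. Actin-7 (CL221.Contig2), by contrast, held 1055 against 149 counts, a ratio of 0.962.

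Cell-cycle features were 1.75-fold higher by sum [1.48, 2.09], and both members able to be called higher were. They were cyclin-dependent kinases: CDKG-2 (CL979.Contig1), with 455 against 4 counts and 15.5-fold higher [6.0, 57.0], and CDKF-4 (CL2036.Contig3), with 220 against 6 and 4.98-fold higher [2.25, 13.7]. Without CDKG-2, the most abundant member, the group was 1.36-fold higher. A D-type cyclin (Unigene10353, cyclin-D4-1), which drives entry into the cycle, held 71 against 17 and had a ratio of 0.568. Histones and DNA replication features had a ratio of 0.777 [0.703, 0.861], with none of 11 higher and 1 lower. Histone H1-I (Unigene4969) held 112 against 89, 5.85-fold lower [4.38, 7.79], and histone H3.3 (Unigene9137) held 574 against 146, 1.87-fold lower [1.55, 2.25]. The summed shares of the cytoskeleton and of histones thus lay on opposite sides.

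Chromatin and small-RNA features were 2.14-fold higher by sum [1.87, 2.45]. Of 14 compared, 2 of the 8 able to be called higher were, close to the 28.7% of all features so able. The 2 called were a chromatin-remodeling ATPase (CL457.Contig3, 182 against 0 counts, at least 8.24-fold) and argonaute PNH1 (Unigene4012, 138 against 4, 4.69-fold [1.79, 17.4]), a small-RNA effector that in Arabidopsis maintains the shoot meristem. The latter held 36 against 2 counts in leaf at 4 days and 6 against 8 in rhizome at a month. Homeobox and other meristem features were 1.91-fold higher [1.62, 2.27], with 1 of 14 called: HOX9 (Unigene2458), 94 against 2 counts.

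Among transcription factors, the 46 WRKY features, a family known for roles in wound and pathogen responses, summed to 0.0733% of cut and 0.0266% of uncut rhizome, 2.75-fold higher [2.00, 3.90]. The sum in uncut rhizome rests on 39 counts. WRKY20 (Unigene2851) held 153 against 0, at least 6.93-fold higher, and was the only one of 4 called. MYB and bHLH features were 1.40-fold higher [1.20, 1.63], with 2 of 9 called, and NAC features 1.23-fold higher [1.02, 1.5], with none of 7. In the leaf pair at 4 days the WRKY sum was lower in cut tissue, 1.44-fold [1.30, 1.60]. Receptor kinases were 1.64-fold higher [1.48, 1.82]. Of 22 compared, 4 of the 6 able to be called higher were, against 28.7% of all features so able. The 4 called included ERECTA (CL847.Contig1), which in Arabidopsis promotes stem elongation, with 133 against 0 counts and at least 6.02-fold.

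**Figure D3:**
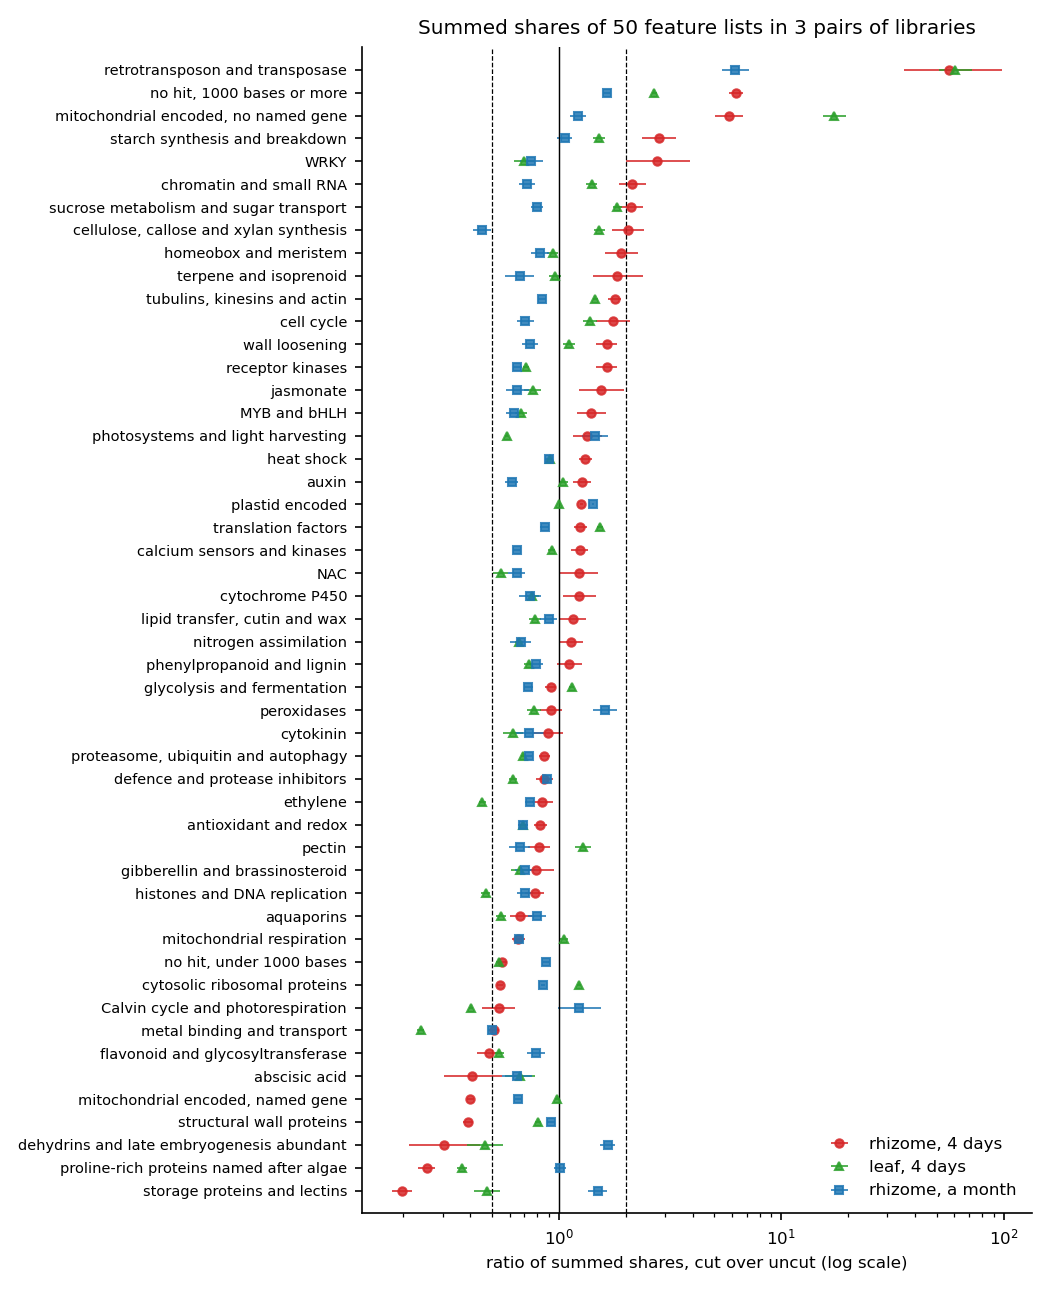
For 50 lists of features, points give the ratio of summed shares, cut over uncut, on a log axis with exact 95% counting intervals; red circles show rhizome at 4 days, green triangles leaf at 4 days and blue squares rhizome at a month. Dashed lines mark 2-fold, which 8 lists passed upward and 7 downward in rhizome at 4 days, from 56.9-fold higher for retrotransposons to 5.07-fold lower for storage proteins and lectins.

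The machinery of translation was divided. Cytosolic ribosomal proteins, 253 features and the described nuclear group with the most counts, summed to 2.02% of cut and 3.73% of uncut rhizome, 1.84-fold lower [1.79, 1.90]. Of 128 compared, 5 of the 31 able to be called lower were, a smaller share than the 27.4% of all features so able. None of the 74 able to be called higher was. Of the 128, 31 lay above the median of their length class. The leaf pair went the other way, at 1.23-fold higher in cut tissue [1.21, 1.25]. Translation factors were 1.25-fold higher [1.17, 1.33], with 7 of the 22 able to be called higher and none of the 4 able to be called lower. Of the 7, 4 were contigs of the elongation factor 1-alpha cluster, led by CL100.Contig12 with 673 against 1 count, 91.5-fold [16.4, 3618]. The 13 contigs of that cluster together held 6102 against 476 counts, and the most abundant, CL100.Contig4, held 1270 against 186 with a ratio of 0.928. How reads were divided among the contigs was not tested.

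In energy metabolism, glycolysis and fermentation features were close to equal, at 0.844% and 0.917% (ratio 0.921 [0.869, 0.976]), with 2 of 35 higher and 2 lower. Alcohol dehydrogenases, which regenerate NAD+ when oxygen is short, stood on both sides. Alcohol dehydrogenase 1 (Unigene10233) held 170 counts in cut and 0 in uncut rhizome, at least 7.70-fold higher, and alcohol dehydrogenase 3 (Unigene9121) held 104 against 82, 5.80-fold lower [4.29, 7.83]. Nuclear features of mitochondrial respiration were 1.52-fold lower by sum [1.42, 1.62], with 2 of 31 higher and 1 lower. The latter was ATP synthase subunit d (Unigene4629), with 146 against 82 counts and 4.13-fold lower [3.11, 5.45].

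Features of the mitochondrial genome split by what they encode. The 71 that match a named gene, mostly subunits of the respiratory chain, summed to 1.15% of cut and 2.88% of uncut rhizome, 2.50-fold lower [2.41, 2.59]. Of 48 compared, 14 of the 21 able to be called lower were, and 6 of the 33 able to be called higher were. Cytochrome c oxidase subunit 1 (Unigene2701) held 60 against 205 counts, 25.1-fold lower [18.8, 34.1], and apocytochrome b (Unigene9286) held 19 against 64, 24.8-fold lower [14.7, 43.8]. Subunit 3 of the oxidase (Unigene5955) held 87 against 221, 18.7-fold lower [14.5, 24.2]. NADH dehydrogenase subunits 1 (Unigene5746, 68 against 182 counts) and 4 (Unigene8219, 49 against 127) and ATP synthase subunit 9 (CL1701.Contig1, 1290 against 704) were lower as well, 19.7-fold, 19.1-fold and 4.02-fold. Other contigs of cytochrome c oxidase subunit 1 were less far apart, such as Unigene1182 with 1085 against 345 counts and 2.34-fold lower.

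The 79 mitochondrial features without a named gene lay on the other side. They summed to 0.740% of cut and 0.128% of uncut rhizome, 5.80-fold higher [5.01, 6.74], and 27 of the 35 able to be called higher were. All 46 compared had their 50 counts in cut rhizome alone, so none could be called lower, and the split by named gene was made after values were seen. CL2244.Contig1, of 9009 bases, held 323 against 1 count, and Unigene1223, of 7520 bases, held 393 against 6. These features are long, with a median of 4392 bases, and the named ones have a median of 3534 bases. Relative to length the median log2 ratios were 0.47 without and -2.12 with a named gene. Both median lengths lie in the longest class (3286 bases and more), where the same value is subtracted from every feature. The matching could therefore hardly change the gap, and it does not settle the part of length in it. In leaf at 4 days the features without a named gene were 17.3-fold higher in cut tissue [15.5, 19.5], whereas the named ones had a ratio of 0.981. At a month in rhizome the ratios were 1.22 and 0.654. Whether genomic DNA or unprocessed transcripts contributed was not tested.

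**Figure D4:**
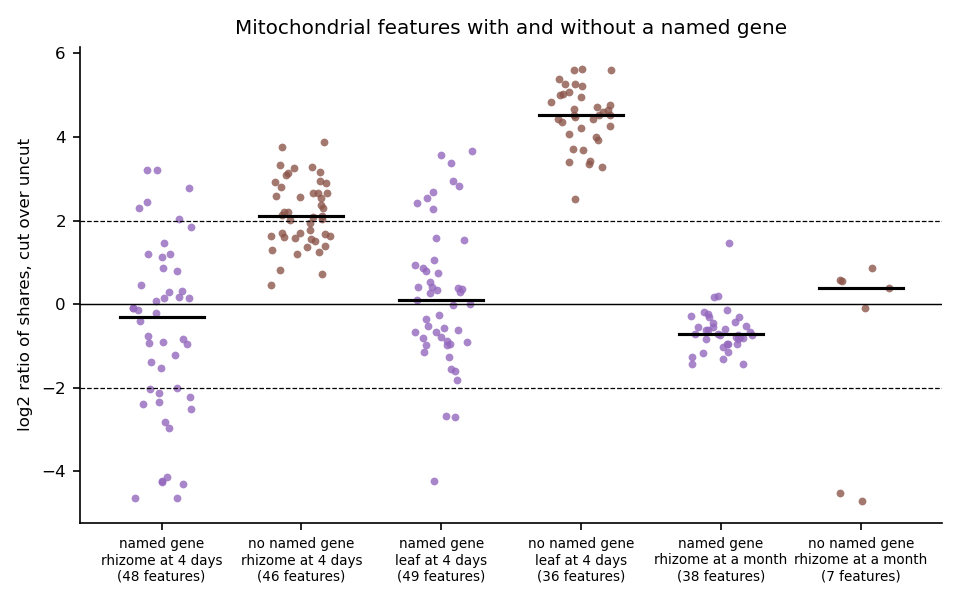
Points are mitochondrial features placed by their log2 ratio of shares, cut over uncut, in 3 pairs of libraries; bars are medians and dashed lines mark 4-fold. In rhizome at 4 days the 46 features without a named gene all lie above 0, with a median of 2.12 and none able to be called lower, and the 48 with a named gene spread on both sides, with a median of -0.31.

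Plastid features summed to 19.1% of cut and 15.1% of uncut rhizome, 1.26-fold higher [1.24, 1.28]. That sum is 205616 against 22148 counts, and 1 contig described below, CL299.Contig3, held 33565 and 10 of them. The 1.26-fold ratio thus depends heavily on that contig. Of 55 compared, 14 of the 43 able to be called higher were, and 3 of the 22 able to be called lower were. Their median log2 ratio was 1.18, and -0.42 relative to length, where 21 of 55 lay above their length class. The largest, CL299.Contig6, held 83635 against 11756 counts, a ratio of 0.967. A contig of the same cluster, CL299.Contig3, held 33565 against 10, 456-fold higher [248, 951], and 120-fold relative to length. It matches ycf68, a reading frame of the plastid ribosomal RNA operon region. In leaf at 4 days it held 13839 counts in cut and 8 in uncut tissue, and in rhizome at a month 3473 and 1424. The 8 contigs of the cluster together held 128963 against 12568, a ratio of 1.39, so the cluster sum did not show the gap in CL299.Contig3. The division of reads among these contigs was not tested. CL299.Contig8, of the same cluster, matches an uncharacterized protein ORF91; its annotation does not name the plastid, so it is outside the plastid sum. CL299.Contig8 had a gap as well, with 763 against 0 counts in rhizome and 842 against 1 in leaf at 4 days.

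Another plastid feature had nearly all its counts in 1 library. Unigene1174, of 6510 bases and named ribosomal protein S16, held 611 counts in cut rhizome at 4 days, 1 in uncut rhizome at a month and 0 in the other 6 libraries. Against the floor of 3 counts it was at least 27.7-fold higher than in uncut rhizome at 4 days. The cut and uncut leaf libraries at 4 days, in which it was not seen, held 2220773 and 2126274 non-ribosomal counts. Unigene1199, which like CL299.Contig3 matches ycf68, went the other way, with 3338 against 2002 counts and 4.41-fold lower [4.17, 4.67].

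Retrotransposons, mobile elements that copy themselves through RNA and that plant cells mostly keep silent, had the largest ratio of any group. Their 39 features summed to 0.661% of cut and 0.0116% of uncut rhizome, 7123 counts against 17, 56.9-fold higher [35.5, 97.8]. Of 9 compared, all 7 able to be called higher were, and none had the counts to be called lower. The reverse transcriptase CL30.Contig4 held 1652 against 2 counts, 112-fold [31.0, 928], and its cluster partner CL30.Contig5 held 2055 against 6, 46.5-fold [21.3, 127]. The gag-pol feature Unigene2355, named for the capsid and enzyme genes of such elements, held 1694 against 4, 57.5-fold [22.4, 211]. Other members in the order of their counts were CL15.Contig3 (558 against 2), CL112.Contig3 (452 against 1), CL15.Contig4 (145 against 0) and Unigene10340 (124 against 0). Contigs of the same cluster can share reads, so CL30.Contig4 and CL30.Contig5, and likewise CL15.Contig3 and CL15.Contig4, are not independent. Some features named as transposon proteins only in another annotation column were outside the list. Among them were CL30.Contig6 (2010 against 14, 19.5-fold [11.6, 35.8]) and CL2486.Contig1 (1000 against 6, 22.6-fold [10.4, 61.9]). The 8 contigs of the CL30 cluster together held 7191 against 41, 23.8-fold higher. The 56.9-fold ratio thus holds for the listed features only.

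Retrotransposon shares across all 8 libraries put the 2 cut libraries at 4 days on top. Leaf at 4 days held 0.391% in cut and 0.00644% in uncut tissue, a ratio of 60.7 [51.2, 72.3]. Rhizome at a month held 0.259% and 0.0418%, a ratio of 6.20 [5.39, 7.15]. In leaf at a month the order was turned, with 0.0104% in cut and 0.0477% in uncut tissue.

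Features with no match in any annotation column followed the same pattern when they were long. The 330 such features of at least 1000 bases summed to 3.19% of cut and 0.510% of uncut rhizome, 6.26-fold higher [5.82, 6.74], and 71 of the 88 able to be called higher were; of the 142 compared 1 could have been called lower. CL18.Contig6 held 4269 against 4 counts, 145-fold [56.6, 533], and CL18.Contig7 held 2955 against 2, 201-fold [55.5, 1659]. In leaf at 4 days CL18.Contig6 held 3688 against 24, in rhizome at a month 1007 against 88, and in leaf at a month 81 against 1002. That is the order of the retrotransposon features in each pair. Shorter features with no match, 5039 of them, summed to a share 1.80-fold lower in cut rhizome [1.72, 1.87], but of the 21 compared 6 were higher and 3 lower, with a median ratio of 2.40. Unigene7332, of 560 bases and the most abundant of them in uncut rhizome, held 1 count in cut and 328 in uncut rhizome, 2414-fold lower [430.2, 95623].

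**Figure D5:**
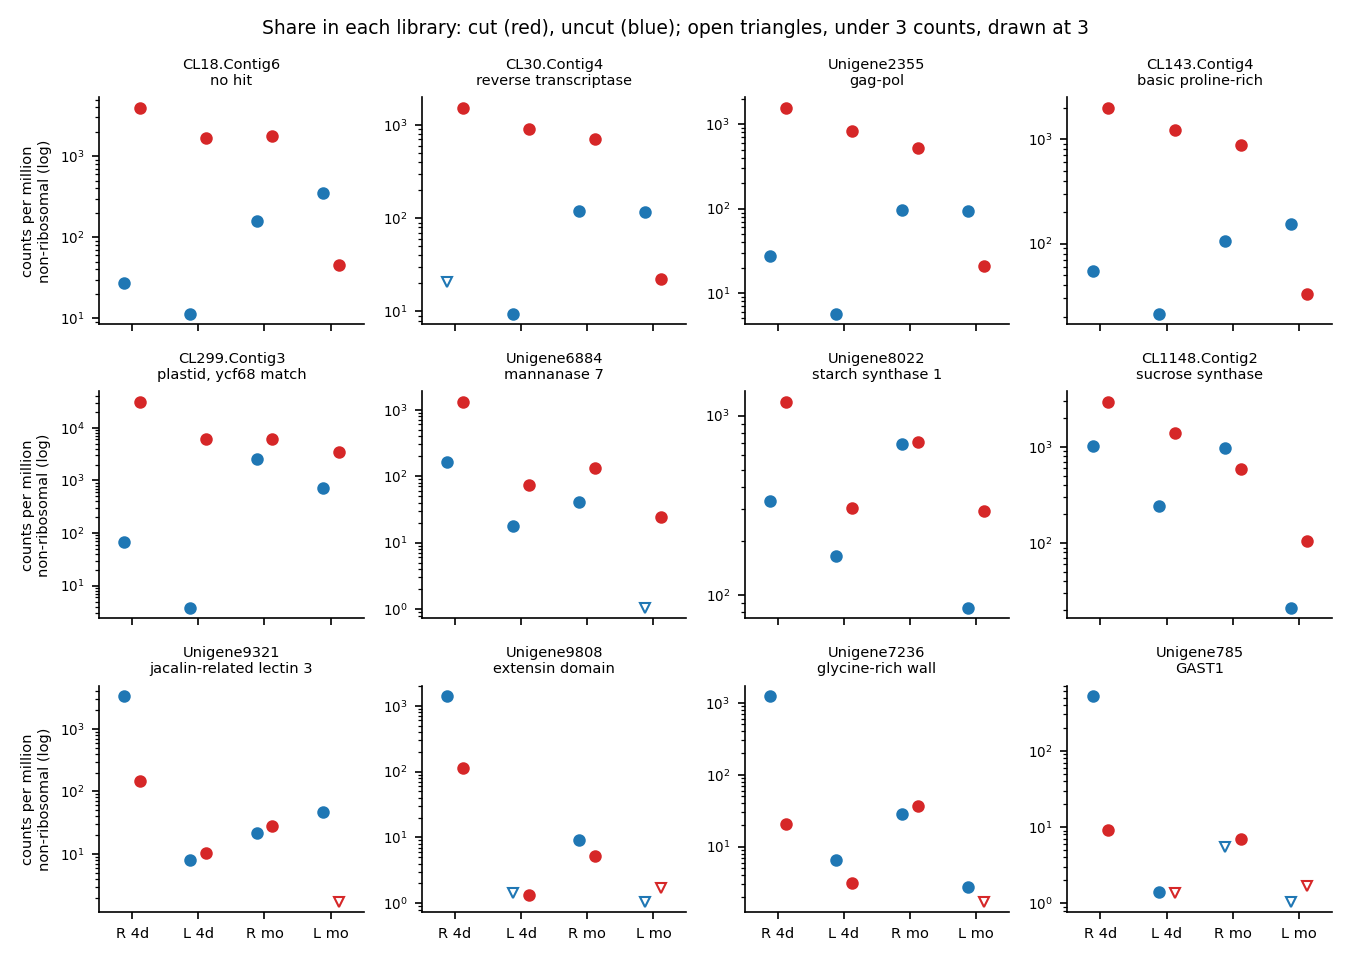
Each panel gives 1 feature in all 8 libraries as counts per 1000000 non-ribosomal counts on a log axis, with cut in red and uncut in blue, for rhizome (R) and leaf (L) at 4 days (4d) and at a month (mo); open triangles mark libraries with under 3 counts, drawn at 3. The top row is high in cut tissue at 4 days in both organs and reversed in leaf at a month, and the bottom row is highest in uncut rhizome at 4 days.

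Storage proteins and lectins summed to 0.0831% of cut and 0.421% of uncut rhizome, 5.07-fold lower [4.57, 5.62]. Most of this lay in 1 feature: jacalin-related lectin 3 (Unigene9321), of a family of carbohydrate-binding proteins, held 157 counts in cut and 493 in uncut rhizome, 23.1-fold lower [19.3, 27.8]. In the other 6 libraries it held 2 to 133 counts. Without it the ratio was 0.810. Metal-binding and transport features were 1.96-fold lower [1.86, 2.06], with 1 of 12 lower. A metallothionein (CL851.Contig1), a small metal-binding protein, held 768 against 420 counts, 4.02-fold lower [3.56, 4.54]. The type 2 metallothionein CL1414.Contig2, the most abundant nuclear described feature of uncut rhizome after the NIPA6 transporter, held 4818 against 1057, 1.61-fold lower [1.51, 1.73].

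Some single features outside these groups had ratios far from 1. The probable magnesium transporter NIPA6 (Unigene8012) held 1338 against 1193 counts, 6.56-fold lower in cut rhizome [6.06, 7.10]. Organic cation/carnitine transporter 4 (Unigene10532) held 11 against 55, 36.8-fold lower [19.0, 78.0]; in rhizome at a month it held 72 counts in cut and 5408 in uncut tissue. A Frigida-like feature (CL2217.Contig1), of a family named after a flowering-time regulator, held 706 against 6, 16.0-fold higher [7.31, 43.7]. A DnaJ co-chaperone (CL1045.Contig1) of 841 bases held 623 against 5, 16.9-fold higher [7.22, 52.3] and 26.7-fold relative to length. The 3 contigs of its cluster together held 1816 against 35, 7.05-fold higher.

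Further features called higher in cut rhizome were enzymes of amino-acid metabolism and a root regulator. Ketol-acid reductoisomerase (CL2314.Contig2), of branched-chain amino-acid synthesis, held 197 against 0 counts, at least 8.92-fold, but the 2 contigs of its cluster held 1569 against 33. Methionine synthase (CL643.Contig2) held 956 against 10, 13.0-fold [7.03, 27.2], and the 5 contigs of its cluster held 3081 against 103, 4.06-fold. A factor like LONESOME HIGHWAY (CL1369.Contig3), which in Arabidopsis roots controls vascular cell number, held 193 against 0, at least 8.74-fold, and at most 5 counts in any other library. The 4 contigs of its cluster held 275 against 6, 6.23-fold. Glutamate dehydrogenase (Unigene11305) held 127 against 0, at least 5.75-fold, and asparagine synthetase 2 (CL306.Contig2), which loads nitrogen for transport, held 100 against 2, 6.79-fold [1.83, 56.9]. Aquaporins were 1.49-fold lower by sum [1.33, 1.66], although of 7 compared 2 of the 6 able to be called higher were.

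The remaining groups lay between 2.06-fold lower and 1.83-fold higher. Heat-shock features were 1.31-fold higher [1.23, 1.40], with heat shock cognate 70 kDa protein 2 (CL1102.Contig3) at 4907 against 210 counts and 3.18-fold; without it their ratio was 0.827. Lipid-transfer and wax features were 1.16-fold higher [1.02, 1.32], but without their most abundant member (CL80.Contig2) their ratio was 0.798. Phenylpropanoid and lignin features were 1.12-fold higher [0.982, 1.27], terpene features 1.83-fold [1.42, 2.38] and nitrogen assimilation 1.14-fold [1.01, 1.28]. Calcium sensors were 1.24-fold higher [1.14, 1.35] and cytochrome P450s 1.23-fold [1.04, 1.47]. On the lower side were proteasome, ubiquitin and autophagy features with a ratio of 0.861, antioxidant features with 0.825, peroxidases with 0.918, defence features with 0.860 and flavonoid features with 0.486. None of these groups except peroxidases, heat shock, lignin, nitrogen assimilation and the proteasome group had a called feature.

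The calls were set beside the other pairs, which share no library with this one. Of the 403 features higher in cut rhizome, 379 could be compared in leaf at 4 days, where 179 were higher (47.2%, against 9.88% of all features compared there) and 1 was lower. In rhizome at a month 128 could be compared and 19 were higher (14.8%, against 2.50% of all). Of the 57 lower features, 11 of 37 were lower in leaf at 4 days (29.7%, against 10.1%) and 2 of 40 in rhizome at a month (5.0%, against 2.91%). Across the 2359 features compared in both, the log2 ratios of rhizome and leaf at 4 days had a Spearman correlation of 0.54, and of 0.41 relative to length. With rhizome at a month it was 0.12 over 1124 features. The 4-day pairs share the slope with length described above. In leaf at 4 days 43.0% of the longest length class and 16.6% of the next were called higher. Of the shortest class 40.2% were called lower, and of the next 23.5%. Features called higher in rhizome had a median of 2660 bases and those called lower one of 946. The shares of all features given here are therefore not matched to them in length. The part of length in this likeness was not tested. Undescribed features made up 35.0% of those called higher against 14.3% of all compared.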

How the data were processed

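RNA was sequenced from 8 libraries, 1 per combination of tissue, cutting and time. Per the labels, each RNA went through either oligo dT selection or removal of ribosomal RNA, without saying which; strand and assembler are not stated in the sources used. The authors mapped reads with Bowtie2 and obtained expected counts and FPKM per assembled feature with RSEM (versions not given), according to the submitters' processing notes. The length column, in bases, is deposited with them.

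Deposited expected counts were rounded to whole numbers, and features absent from a library's table were set to 0. From the deposited annotation, 35 features were ribosomal RNA and were left out (genes for proteins that modify ribosomal RNA were kept), 289 were organelle features and 24312 others. A feature was compared at 50 counts in either library and called at 4-fold, with 50 counts in the library of the larger share. Intervals are exact conditional binomial (Clopper-Pearson) at 95%. Length matching subtracts the median log2 ratio of 10 length classes. With no residual degrees of freedom, no p-value was computed; replicates would be needed. TMM factors came from edgeR 4.0.16 in R 4.3.3; the rest used Python 3.11.15, numpy 2.4.6, pandas 2.3.3 and scipy 1.17.1. FPKM served only as an alternative. The script was tested on simulated data.

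Lists were written from Nr descriptions, or SwissProt where Nr had none. The comparison and the lists were chosen with earlier results of these data known, and the mitochondrial list was split by named gene after its values were seen. Candidates for naming were, per direction, the 15 described features whose interval lies farthest from no change, and the 10 most abundant of each library. Up to 4 members of each list were candidates as well. Not all candidates are named above. Some features outside that rule are named as examples and were chosen after their values were seen.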

Additional observations from a re-analysis of the deposited data

Results flagged for a closer look

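The summed share of cellulose, callose and xylan synthesis was 2.04-fold higher in cut than in uncut rhizome at 4 days and 2.22-fold lower at a month; the difference was not tested. CL108.Contig2, an undescribed feature of 754 bases, held 159 against 0 counts in rhizome at 4 days, 7.20-fold against the floor of 3 counts, but 86 against 341 in leaf at 4 days, 4.14-fold lower in cut tissue; the difference was not tested. Unigene7332, undescribed, had a ratio of 0.000414 in rhizome at 4 days (1 against 328 counts) but 7.49-fold in favour of cut tissue at a month (551 against 71), again not tested. Unigene8055, named pumilio homolog 5 after a family of RNA-binding repressors, held 106 against 3 counts in rhizome at 4 days, 4.80-fold [1.60, 23.7], and 17 against 72 at a month; this was not tested either.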

How the results depend on the processing

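Uncut rhizome, at 146449 non-ribosomal counts, sets the counting precision: 3 counts there are 20.5 per 1000000. Variation between explants and preparations was not measured. No paired analysis was possible because each group has 1 library. The 403 higher calls became 122 under median-of-ratios scaling, 51 with the same share minimum, 81 matched on length, 1021 on FPKM shares, 262 with described features alone, 1363 at 2-fold and 78 at 8-fold. The 57 lower calls became 36 with nuclear counts only, 87 under median-of-ratios scaling, 165 and 28 at count minimums of 20 and 100, 2039 with no minimum, 144 matched on length, 33 on FPKM shares, 99 at 2-fold and 30 at 8-fold. The median log2 ratio of 0.93 turned to -1.66 with no count minimum and -0.11 with the same share minimum. It was 0.72 without Unigene19161, 1.20 with TMM, 0.21 under median-of-ratios scaling, 0.34 at a minimum of 20, 0.84 with clusters summed, 1.67 on FPKM shares, 0.81 for described features and, by construction, 0 matched on length. Without Unigene19161 the non-ribosomal shares were 8.12% in cut and 1.39% in uncut rhizome, against 10.6% and 2.13%. Of list medians past 2-fold, 3 changed sign when matched on length: cellulose, callose and xylan synthesis (-0.12), cell cycle (-0.17) and plastid features (-0.42). No list sum past 2-fold changed direction under any alternative run for sums (nuclear counts, FPKM shares, without Unigene19161, at least 500 bases, without the most abundant member). Their sizes were less stable. Of 50 list sums, 40 left their counting interval on FPKM shares, 32 without Unigene19161 and 24 without the most abundant member. Except where construction shows it, the cause was not tested.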
